A study of Arabidopsis thaliana with 18 samples.

Results

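Loss of TERMINAL FLOWER 1 (TFL1) was examined in Arabidopsis shoot apices that had received no inductive light. The comparison sets 3 untreated tfl1-1 libraries against 3 untreated wild-type libraries, which are 6 of the 18 libraries of the series and were taken by genotype and treatment. Both groups were Col-0 plants grown for 42 days in short days with 8 h of light and 16 h of dark at 120 µmol per square metre and second, and shoots were collected after all leaves and roots had been removed. The tfl1 group carried the tfl1-1 allele and the wild-type group carried no mutation. The other 12 libraries are untreated ft-10 mutants and plants of the 3 genotypes after 24 h of far-red-enriched photoinduction (FRP). tfl1-1 is a point mutation, so the transcript is still made and its level does not check the genotype labels. Any other sequence difference between the tfl1-1 line and the wild type cannot be told apart from the loss of TFL1.

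TFL1 and FLOWERING LOCUS T (FT) are related proteins that bind the same bZIP transcription factor, FD, and act on flowering in opposite directions. TFL1 bound to FD keeps meristems indeterminate and represses floral genes, whereas FT is a leaf-made florigen that activates them when days are long. LEAFY (LFY), a transcription factor that gives meristems floral fate, is a main target of both complexes, and bZIP proteins such as FD bind DNA at G-box and C-box motifs. Without TFL1 the shoot ends in a flower and flowering starts earlier.

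The stretch of the second of the 3 coding exons of LFY (AT5G61850) that holds such motifs is shown because this exon carries the sites the study examined. Exon 2 spans chr5:24845210-24845616 and has 407 bases, and the plus-strand stretch at chr5:24845349-24845521 of the RefSeq TAIR10.1 sequence follows. Capitals mark 1 G-box (CACGTG) and 2 C-boxes (GACGTC), which read the same on both strands.
LFY exon 2: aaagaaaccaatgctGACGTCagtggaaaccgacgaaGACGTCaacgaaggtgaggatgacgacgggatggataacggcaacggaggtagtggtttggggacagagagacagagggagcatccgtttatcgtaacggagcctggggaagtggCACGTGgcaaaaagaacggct

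The libraries held 31016523 to 34246333 counts on genes in tfl1 and 20846452 to 27492881 in the wild type, which makes 3 counts equal to at most 0.0984 CPM, the gene's counts relative to the TMM-scaled library size, in tfl1 and 0.143 CPM in the wild type. Wild-type replicate 1 stood apart. Its rank correlation with either other wild-type replicate was at most 0.9365, against 0.9792 with an untreated ft library, and its counts differed from theirs by a chi-square of 112 to 121 per degree of freedom, against 10.3 between wild-type replicates 2 and 3 and 4.22 to 17.1 among tfl1 replicates. Calls were therefore made with all 18 libraries in the fit and again without wild-type replicate 1 (17 libraries). Outside their own group, tfl1 replicates 2 and 3 were also closest to an untreated ft library (0.9824 and 0.9796). For tfl1 replicate 1 the closest was wild-type replicate 2 (0.978). Shoot apex markers (STM, KNAT1, CLV3, WUS, CUC2 and LAS) summed to 180 to 193 CPM in tfl1 and 150 to 206 CPM in the wild type, so the labelled tissue was present in both. Root hair markers summed to at most 0.0652 CPM in tfl1 and 0.0954 CPM in the wild type, and 2 of these 6 were at 0 in all 6 libraries. The slope of expression on transcript length averaged -0.17 ± 0.0779 in tfl1 and -0.212 ± 0.255 in the wild type (SD, n = 3 each), which an exact two-sided permutation test did not separate (p = 0.8, where 0.1 is the smallest it can give). By replicate the slopes were -0.252, -0.0978 and -0.159 in tfl1 and 0.0823, -0.352 and -0.367 in the wild type. Without wild-type replicate 1 the wild-type slopes lay below all tfl1 slopes, so slope and genotype cannot be told apart in that fit.

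With all libraries, 869 genes (4.05% of 21442 tested) were higher and 592 (2.76%) were lower in tfl1 (edgeR quasi-likelihood test, called where p adjusted by Benjamini-Hochberg was 0.005 or less). In the fit without wild-type replicate 1, 2524 genes (11.8% of 21429) were higher and 2684 (12.5%) were lower. The genes called in the same direction in both fits numbered 852 higher (3.98%) and 574 lower (2.68%), and none of the genes called in both fits changed direction between them. In 1422 of these 1426 genes the 3 tfl1 and 3 wild-type values did not overlap. The genes were called on these same values, so this separation largely follows from the calls and adds no evidence. Of the 1426 genes, 307 were higher and 199 lower by at least 2-fold in both fits, and 36 and 35 by at least 8-fold. In what follows "rose" and "fell" refer to these genes called in both fits, and fold changes are tfl1 over wild type. A pair of log2 fold changes gives the value with all libraries and then that without wild-type replicate 1. Counts of called list members are to be read beside the shares over all tested genes given here.

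The number of calls hung on single libraries. The biological coefficient of variation was 0.161 with all libraries and 0.101 without wild-type replicate 1, and that replicate lay nearer to the tfl1 mean than to the mean of the other wild-type libraries in 3635 (69.8%) of the 5208 genes called without it. Leaving out one of the other libraries from the full fit gave 862, 794 and 741 calls without tfl1 replicate 1, 2 and 3, and 1403 and 845 without wild-type replicate 2 and 3, against 1461. From the smaller fit it gave 4261, 3315 and 3250 calls without tfl1 replicate 1, 2 and 3, and 3111 and 1655 without wild-type replicate 2 and 3. The split of calls depended on the scaling. Of the calls 59.5% were higher in tfl1 with all libraries and 48.5% without wild-type replicate 1, against 69.4% and 68.7% with library totals as the scale, and 41.4% and 33% after trends on transcript length and GC content were removed. With a minimum of 1 count in total, 72.3% of the calls with all libraries were higher.

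**Figure D1:**
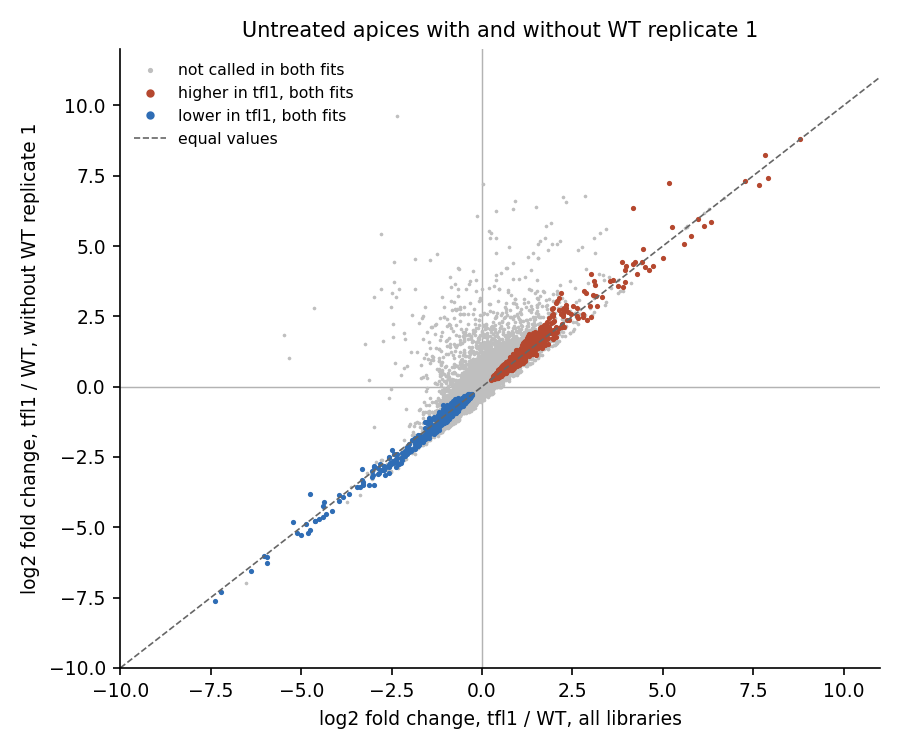
Log2 fold changes of tfl1 over wild type in untreated apices, with all libraries (x axis) and without wild-type replicate 1 (y axis), one point per tested gene. Red points are the 852 genes called higher and blue points the 574 called lower in tfl1 in both fits, and the dashed line marks equal values; both fits share their tfl1 libraries and 2 wild-type libraries, and grey points far above the line are genes in which wild-type replicate 1 was high.

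LFY was higher in tfl1 before any inductive light. It had 1.21, 1.47 and 1.25 CPM in tfl1 replicates 1 to 3, against 0.573, 0.31 and 0.382 CPM in wild-type replicates 1 to 3 (in this order from here on). The groups did not overlap, and LFY rose by 1.64 ± 0.26 (log2, SE; adjusted p = 0.000548) with all libraries and by 1.92 ± 0.30 (adjusted p = 0.000215) without wild-type replicate 1. That second call was lost without wild-type replicate 2 (adjusted p = 0.0054). LFY was the sole riser among 15 tested genes of floral meristem identity, whose median log2 fold change was 0.301 with all libraries and 0.416 without wild-type replicate 1, against -0.054 and -0.00885 over all tested genes. Without wild-type replicate 1 this list had 2 genes called higher and 2 called lower. Bulk tissue was measured, so fewer cells of a type and less RNA per cell cannot be told apart here or in any later result.

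APETALA1 (AP1), a MADS-box gene that acts downstream of and beside LFY in giving floral fate, was near the limit of detection. It had 11, 9 and 13 counts in tfl1, against 1, 1 and 0 counts in the wild type. Scaled to depth this is a ratio of 11.8 with a 95% counting interval of 3.01 to 101, and the intervals given for such ratios cover counting error only. AP1 passed the threshold with all libraries (adjusted p = 0.00452) and missed it without wild-type replicate 1 (adjusted p = 0.00549), and the call with all libraries was lost without any single one of the 6 libraries (adjusted p up to 0.0222).

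The other floral and onset genes that the study names were not called. FRUITFULL (FUL), a relative of AP1, had 1.92, 2.31 and 2.1 CPM in tfl1 and 1.19, 1.12 and 2.05 CPM in the wild type (log2 fold changes 0.54 and 0.44). SOC1, a MADS-box integrator of flowering signals, had 12.6, 9.94 and 11.3 CPM in tfl1 and 8.59, 9.56 and 7.25 CPM in the wild type (log2 fold changes 0.41 ± 0.15 and 0.42 ± 0.18, adjusted p = 0.074 and 0.0653). LMI2, a MYB gene acting with LFY, overlapped between groups at 16.6 to 18.7 CPM in tfl1 and 14.3 to 19.1 CPM in the wild type (log2 fold change 0.10, adjusted p = 0.552, with all libraries, and adjusted p = 0.984 without wild-type replicate 1). For CONSTANS (CO) and GIGANTEA (GI), which read day length, the groups overlapped only through wild-type replicate 1. CO had 0.71, 1.37 and 1.35 CPM in tfl1, against 1.15, 0.426 and 0.429 CPM in the wild type, and GI had 58.5, 72.5 and 64.5 CPM in tfl1, against 102, 44.2 and 43 CPM in the wild type. With all libraries their log2 fold changes were 0.79 ± 0.36 (adjusted p = 0.139) for CO and 0.05 ± 0.28 (adjusted p = 0.921) for GI. Without that replicate CO differed by 1.40 ± 0.38 (adjusted p = 0.00822) and GI by 0.58 ± 0.21 (adjusted p = 0.0313), neither past the threshold. GI passed it in that fit with only the compared groups (adjusted p = 0.00253) or only untreated libraries (adjusted p = 0.000256). It also passed with the replicate number as a block (adjusted p = 0.000685), but not with length and GC trends removed (adjusted p = 0.12). For CO the adjusted p was as low as 0.00172 when a further library was left out. None of the 10 tested photoperiod genes was called in both fits (edgeR), 4 were higher in tfl1 at an unadjusted p under 0.05 with all libraries, and 3 were called higher without wild-type replicate 1.

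TFL1 itself was not called, with 6.15, 5.6 and 6.2 CPM in tfl1 and 3.15, 8.13 and 7.2 CPM in the wild type (log2 fold change -0.05 ± 0.23, adjusted p = 0.905). Wild-type replicate 1 was below the tfl1 libraries and the other wild-type replicates above them, and without it the log2 fold change was -0.36 ± 0.13 (adjusted p = 0.0351), short of the threshold. FT was at 1, 0 and 1 counts in tfl1 and at 0 in all 3 wild-type libraries. TWIN SISTER OF FT (TSF), the closest relative of FT and also a florigen, was among the clearest changes of the comparison. It had 3.1, 3.62 and 3.77 CPM in tfl1, against 0.286, 0.155 and 0.238 CPM in the wild type and 0.364 to 0.583 CPM in untreated ft. The wild-type values were near the limit of detection, where 3 counts equal 0.116 to 0.143 CPM. TSF rose by 3.95 ± 0.24 (adjusted p = 2.25e-07) with all libraries and by 4.15 ± 0.27 (adjusted p = 1.51e-07) without wild-type replicate 1, and the call held in every fit that left out a library. FD, the DNA-binding partner of both proteins, had 21.8, 25.9 and 23.4 CPM in tfl1 and 17.3, 11.5 and 12.6 CPM in the wild type. FD rose by 0.78 ± 0.14 (adjusted p = 0.0011) and by 0.97 ± 0.11 without wild-type replicate 1 (adjusted p = 1.88e-05), and its call with all libraries was lost without wild-type replicate 3 or tfl1 replicate 2 (adjusted p up to 0.00706).

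Floral repressors changed in both directions, with 3 of 15 tested genes higher and 2 lower, against 5 higher and 3 lower without wild-type replicate 1. MAF5, a MADS-box relative of FLOWERING LOCUS C (FLC), had 26.1, 24.3 and 25.8 CPM in tfl1, against 0.621, 2.32 and 2.05 CPM in the wild type. It rose by 3.91 ± 0.26 (adjusted p = 3.61e-07) with all libraries and by 3.53 ± 0.11 (adjusted p = 5.57e-11) without wild-type replicate 1. Its neighbours on the same stretch of chromosome 5 moved less. MAF4 had 13.4, 13.2 and 13.7 CPM in tfl1, against 6.16, 9.41 and 9.68 CPM in the wild type and rose by 0.67 ± 0.14 and 0.50 ± 0.11. MAF2 had 57.3 to 58.7 CPM in tfl1 and 70.4 to 83 CPM in the wild type and fell by 0.37 and 0.29 on the log2 scale. FLC, which blocks FT and SOC1 until winter has passed, had 8.87, 8.21 and 8.43 CPM in tfl1 and 10.7, 16.5 and 13.3 CPM in the wild type and fell by 0.67 and 0.81. TOE3, an AP2-type repressor targeted by miR172, had 17.7 to 18.4 CPM in tfl1 and 10.9 to 13.3 CPM in the wild type and rose by 0.56 ± 0.11 and 0.49 ± 0.11. Of these 5 calls, that of MAF5 alone held in every fit that left out a library. With all libraries the calls of MAF2 and MAF4 were lost without any one of the tfl1 replicates, that of TOE3 also without wild-type replicate 2, and that of FLC without any library but wild-type replicate 1 (adjusted p up to 0.0194 among these 4). In the smaller fit MAF2 was lost without wild-type replicate 3, TOE3 without any library but tfl1 replicate 1 and MAF4 without any of the 5 libraries (adjusted p up to 0.0256).

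**Figure D2:**
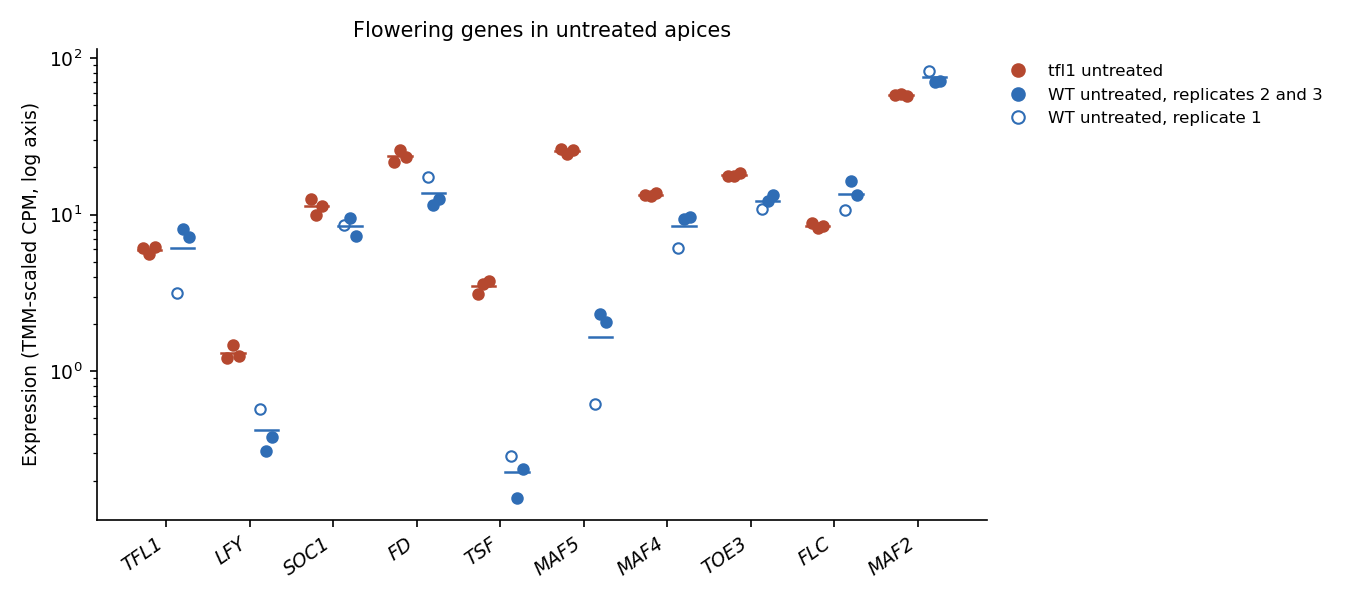
Expression of flowering genes in untreated apices in TMM-scaled CPM on a log axis, with one point per library, tfl1 in red and left of the wild type in blue, and bars at the group means. Open circles are wild-type replicate 1; TSF lies between 3.1 and 3.77 CPM in tfl1 and at or below 0.286 CPM in the wild type, and MAF5 between 24.3 and 26.1 CPM in tfl1 and at or below 2.32 CPM in the wild type, whereas TFL1 overlaps.

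MYB23, SHN2 and AT5G33370 were among the 12 genes named for the largest decrease, and lists of trichome regulators and of cuticle genes were drawn up after these values had been seen. Trichomes are the branched hairs of the leaf and stem epidermis, set by a complex of MYB (GL1, MYB23) and bHLH (GL3) proteins that turns on the homeodomain gene GL2 and also its own mobile inhibitors (TRY, CPC, ETC1). Of 20 tested trichome regulators 9 fell and 1 rose, and the same counts were called without wild-type replicate 1, with a median log2 fold change of -0.511 with all libraries and -0.573 without wild-type replicate 1.

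MYB23 had 0.473, 0.424 and 0.492 CPM in tfl1, against 8.93, 12.5 and 12.9 CPM in the wild type and 10.4 to 10.6 CPM in untreated ft. It fell by 4.62 on the log2 scale (SE 0.24, adjusted p = 3.47e-08) with all libraries and by 4.77 (SE 0.21, adjusted p = 2.21e-09) without wild-type replicate 1. GL1, its paralogue, had 1.45, 1.6 and 1.15 CPM in tfl1, against 5.83, 11.5 and 10.2 CPM in the wild type, and fell by 2.71 and 2.96. The inhibitors fell with the activators. TRY had 3, 3 and 2 counts in tfl1, against 28, 52 and 56 counts in the wild type, which is 23.8-fold fewer at equal depth (95% counting interval 11.8 to 56.3), and CPC had 3 to 3.28 CPM in tfl1 and 5.25 to 11.9 CPM in the wild type and fell by 1.56 and 1.85. GL2, which drives hair outgrowth, had 3.93, 3.62 and 4.07 CPM in tfl1, against 15.8, 7.94 and 10.6 CPM in the wild type, and fell by 1.56 and 1.25. HDG11, another epidermal homeodomain gene, had 8.1 to 9.14 CPM in tfl1 and 15.5 to 18.3 CPM in the wild type and fell by 1.02 and 0.98.
The calls of these 6 held in every fit that left out a library. GL3, MYB106 (which limits hair branching) and ETC1 also fell, by 1.44, 1.59 and 0.93 with all libraries and by 1.27, 1.48 and 1.15 without wild-type replicate 1, and ZFP5, a zinc-finger gene of hair initiation, rose by 0.87 ± 0.18 and 0.62 ± 0.11. The calls of these 4 with all libraries were lost without tfl1 replicate 3, and in part without other libraries (adjusted p up to 0.0241). In the smaller fit those of GL3, MYB106 and ZFP5 were lost without wild-type replicate 3 (adjusted p up to 0.0455).

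Cuticle genes make the wax and cutin that coat the epidermis. Of 27 tested, 11 fell and 2 rose (12 were called lower and 4 higher without wild-type replicate 1), with a median log2 fold change of -0.424 with all libraries and -0.291 without wild-type replicate 1. CER1, which makes the alkanes of wax, had 17.4, 15.1 and 14 CPM in tfl1, against 114, 60.9 and 87.3 CPM in the wild type, and fell by 2.49 (SE 0.23, adjusted p = 5.22e-06) and by 2.25 without wild-type replicate 1. KCS5, which lengthens the fatty acids that become wax, had 12.5 to 13.4 CPM in tfl1 and 48.1 to 66.2 CPM in the wild type and fell by 2.08 and 2.15. SHN2, an AP2-type activator of wax and cutin genes, had 0.503, 0.521 and 0.689 CPM in tfl1, against 5.68, 6.66 and 9.49 CPM in the wild type, and fell by 3.67 and 3.81. AT5G33370, a GDSL-like lipase, had 2.37, 1.89 and 2.69 CPM in tfl1, against 31.5, 47.1 and 59.8 CPM in the wild type and 33.8 to 39.1 CPM in untreated ft. It fell by 4.31 (SE 0.31, adjusted p = 6.53e-07) with all libraries and by 4.52 (SE 0.27, adjusted p = 7.07e-08) without wild-type replicate 1.

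The P450 enzymes that hydroxylate cutin monomers did not move as one. CYP86A4 had 2 to 2.31 CPM in tfl1 and 11.2 to 20.7 CPM in the wild type and fell by 2.89 and 2.88, CYP86A7 fell by 2.76 and 2.96, and CYP77A6 by 1.36 and 1.45. CYP86A2, of the same family, had 27.4, 27.8 and 27.6 CPM in tfl1, against 17.3, 13.4 and 11.5 CPM in the wild type, and rose by 0.97 ± 0.19 and 1.14 ± 0.19. SHN3, a close relative of SHN2, had 5.17, 5.31 and 5.38 CPM in tfl1, against 1.38, 2.36 and 2.34 CPM in the wild type, and rose by 1.38 ± 0.20 and 1.17 ± 0.19 (adjusted p = 0.000326 and 0.000223). The transporters of cuticle lipids ABCG13 and LTPG1 fell, ABCG13 by 1.08 and 1.05 and LTPG1 by 0.57 and 0.58. So did GPAT4 and LACS1, which activate or esterify fatty acids, GPAT4 by 0.42 and 0.29 and LACS1 by 0.73 and 0.48. With all libraries the calls of GPAT4 and LACS1 were lost without wild-type replicate 3 or any tfl1 replicate and that of CYP86A2 without any library but wild-type replicate 1 (adjusted p up to 0.0218). In the smaller fit all 3 were lost without wild-type replicate 3, and GPAT4 and LACS1 also without tfl1 replicates (adjusted p up to 0.0934). The other 10 held throughout. Within both the CYP86A and the SHN families one member was higher and another lower in tfl1.

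**Figure D3:**
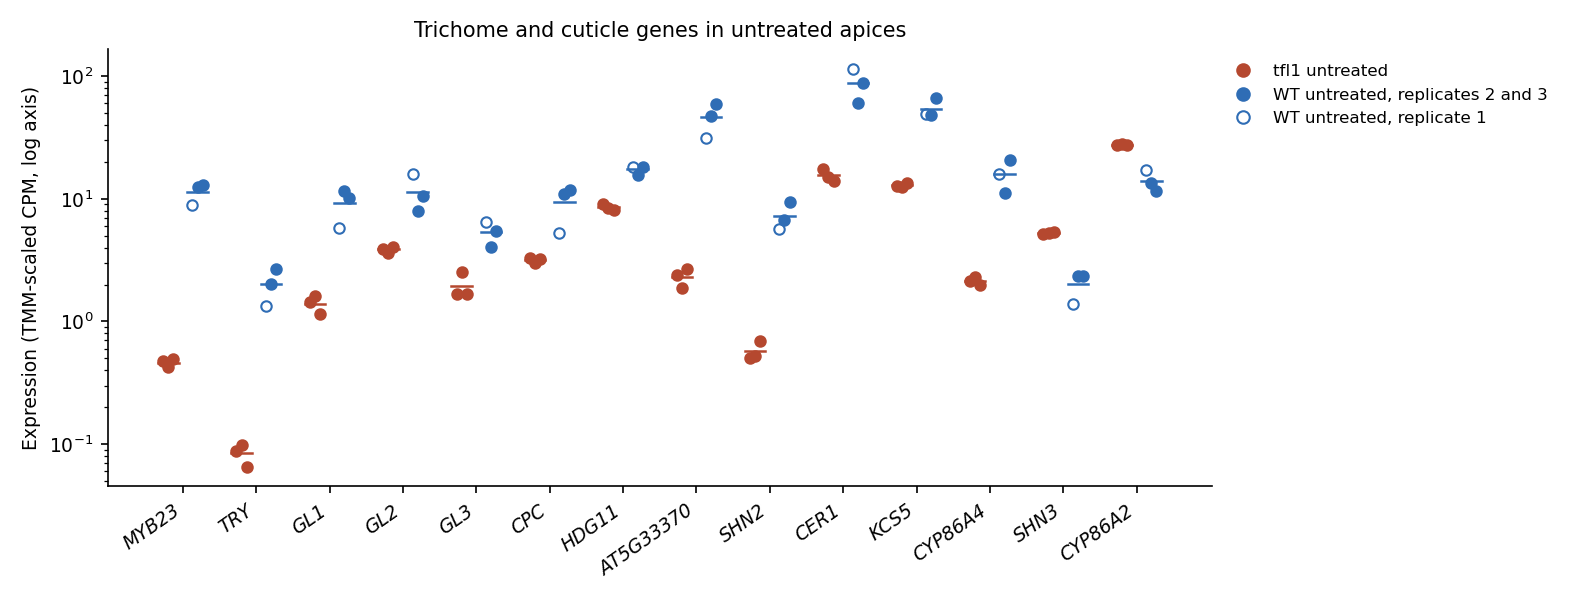
Expression of trichome genes (MYB23 to HDG11) and cuticle genes (AT5G33370 to CYP86A2) in untreated apices in TMM-scaled CPM on a log axis, with one point per library, tfl1 in red and left of the wild type in blue, and bars at the group means. Open circles are wild-type replicate 1; the tfl1 libraries lie below all wild-type libraries in every gene shown but SHN3 and CYP86A2, in which they lie above.

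The 250 bases before AT5G33370 are shown because this gene fell most among the cuticle genes and its window holds an L1-box (TAAATGCA or TAAATGTA, on either strand), the motif bound by epidermal homeodomain proteins such as GL2 and HDG11. The window is at chr5:12604833-12605082 on the minus strand of RefSeq TAIR10.1, with the L1-box in capitals.
AT5G33370: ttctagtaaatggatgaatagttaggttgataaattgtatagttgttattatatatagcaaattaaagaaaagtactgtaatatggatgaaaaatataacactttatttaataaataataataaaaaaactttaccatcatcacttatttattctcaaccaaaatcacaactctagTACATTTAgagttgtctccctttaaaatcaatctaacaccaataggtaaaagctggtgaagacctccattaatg
An L1-box lay in this window in 6.8% of the 559 nuclear genes that fell and in 6.69% of the 852 that rose, against 4.54% of all 21341 tested genes with a window. This describes where the letters occur and shows no binding.

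Cytokinin promotes cell division in the meristem, is made by isopentenyltransferases (IPT) and broken down by oxidases (CKX), and induces type-A response regulators (ARR) that damp its own signal. In tfl1 the 2 genes of synthesis IPT3 and IPT5 rose, whereas CKX5 and the type-A regulators ARR5, ARR7, ARR8, ARR9 and ARR15 fell, which makes 2 higher and 6 lower of 29 tested cytokinin genes, against 4 higher and 11 lower without wild-type replicate 1. IPT5 had 9.37, 7.49 and 8.99 CPM in tfl1, against 2.82, 3.56 and 2.86 CPM in the wild type, and rose by 1.48 ± 0.12 and 1.42 ± 0.13 (adjusted p = 1.26e-06 and 2.26e-06). IPT3 had 14.1, 24.5 and 20.4 CPM in tfl1 and 8.45, 10.6 and 9.4 CPM in the wild type and rose by 1.04 ± 0.18 and 0.97 ± 0.20. Untreated ft was as high at 14.8 to 21.7 CPM. ARR5 had 40, 36.8 and 37.2 CPM in tfl1, against 88, 76.3 and 80.4 CPM in the wild type and 45.4 to 48.8 CPM in untreated ft, and fell by 1.102 (SE 0.12, adjusted p = 1.91e-05) and by 1.04 (SE 0.12, adjusted p = 1.71e-05). ARR8 had 22.8 to 25.2 CPM in tfl1 and 35.7 to 47.9 CPM in the wild type and fell by 0.86 and 0.99. IPT5, ARR5 and ARR8 held in every fit that left out a library.

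In the other type-A regulators wild-type replicate 1 lay with tfl1. ARR7 had 25.6, 29.9 and 27.4 CPM in tfl1, against 30.9, 76.1 and 92.1 CPM in the wild type, and fell by 1.26 and 1.60. ARR9 had 62.6, 55 and 60.3 CPM in tfl1, against 63.3, 170 and 177 CPM in the wild type, and fell by 1.203 and 1.55. ARR15 had 11.2, 14 and 11.4 CPM in tfl1, against 13.8, 30.9 and 46.7 CPM in the wild type, and fell by 1.32 and 1.67, with an overlap between the groups. Their calls with all libraries were lost without any library but wild-type replicate 1 (adjusted p up to 0.0248). ARR4, ARR6 and the type-B activator ARR1, chosen after their values were seen, were called only without wild-type replicate 1, ARR4 and ARR6 lower by 1.04 and 1.35 and ARR1 higher by 0.89 ± 0.09. CKX5 fell by 0.63 and 0.65. The calls of CKX5 and IPT3 with all libraries were also lost without wild-type replicate 3 or tfl1 replicate 2 and, for CKX5, the other tfl1 replicates (adjusted p up to 0.017), and in the smaller fit without wild-type replicate 3 and other libraries (adjusted p up to 0.0318).

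**Figure D4:**
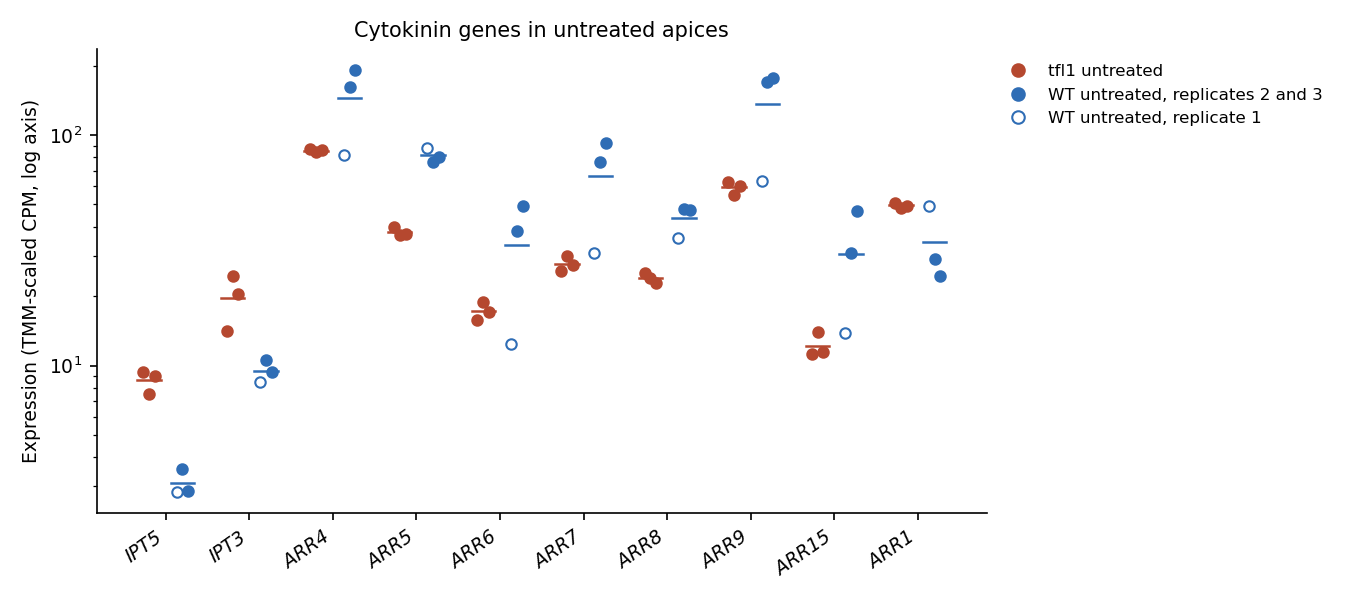
Expression of cytokinin genes in untreated apices in TMM-scaled CPM on a log axis, with one point per library, tfl1 in red and left of the wild type in blue, and bars at the group means. Open circles are wild-type replicate 1, which lies near the tfl1 libraries in ARR4, ARR6, ARR7, ARR9, ARR15 and ARR1 and with the other wild-type libraries in IPT5, IPT3 and ARR5.

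Of 8 tested genes that mark organ boundaries, where axillary meristems form, 4 rose and none fell (5 were called higher without wild-type replicate 1), with a median log2 fold change of 0.566 with all libraries and 0.547 without wild-type replicate 1. CUC3, a NAC gene of the boundary, had 7.01, 7.4 and 7.48 CPM in tfl1, against 3.44, 4.03 and 4.58 CPM in the wild type, and rose by 0.86 ± 0.10 and 0.77 ± 0.10 (adjusted p = 5.79e-05 and 4.37e-05) with a call that held throughout. CUC1 rose by 0.88 ± 0.18 and 0.68 ± 0.16, RAX1, a MYB gene of axillary meristem formation, by 0.71 ± 0.15 and 0.72 ± 0.18, and BOP2, of the leaf base, by 0.51 ± 0.09 and 0.42 ± 0.08. CUC2 overlapped between groups, with 5.09 to 5.25 CPM in tfl1 and 3.63 to 7.28 CPM in the wild type (log2 fold changes -0.13 and -0.37). Among 10 tested meristem genes BLR, a homeodomain partner of STM, rose by 0.52 ± 0.10 and 0.40 ± 0.08. CLV3, the peptide of the stem cells, fell with 3, 4 and 2 counts in tfl1, against 10, 11 and 13 counts in the wild type. Without wild-type replicate 1, 3 meristem genes were called higher and 1 lower. STM itself had 122 to 139 CPM in tfl1 and 91 to 151 CPM in the wild type (log2 fold changes 0.09 and -0.08, not called). With all libraries the calls of CUC1, RAX1, BOP2, BLR and CLV3 were lost without tfl1 replicates 1 and 3, and all but BOP2 without tfl1 replicate 2 and 1 or both of wild-type replicates 2 and 3 (adjusted p up to 0.0227). In the smaller fit all 5 were lost without wild-type replicate 3, and CUC1, RAX1, BOP2 and CLV3 also without further libraries (adjusted p up to 0.0443).

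Each of the other hormone pathways gave more calls without wild-type replicate 1 than in both fits, and so did the whole table. Over all tested genes 3.98% were called higher and 2.68% lower in both fits, against 11.8% and 12.5% without that replicate. Strigolactone suppresses shoot branching, and of 10 tested genes its synthesis genes MAX1 and CCD8 rose, against 4 called higher without wild-type replicate 1. MAX1 had 31, 41.1 and 36.1 CPM in tfl1 and 19.6, 20.4 and 18.3 CPM in the wild type and rose by 0.89 ± 0.10 and 0.90 ± 0.12. CCD8 had 5.74, 6.09 and 4.92 CPM in tfl1 and 1, 2.28 and 1.67 CPM in the wild type and rose by 1.74 ± 0.24 and 1.48 ± 0.21. BRC1, the branching repressor, was not called, with 2 to 2.61 CPM in tfl1 and 1.48 to 3.01 CPM in the wild type. GA3OX1, which makes active gibberellin, had 11.5, 10.3 and 12 CPM in tfl1 and 7.26, 4.88 and 6.3 CPM in the wild type and rose by 0.88 ± 0.14 and 1.02 ± 0.14, the only call in both fits among 16 gibberellin genes. Of these, 4 were called higher and 1 lower without wild-type replicate 1. MAX1, CCD8 and GA3OX1 held in every fit that left out a library. In abscisic acid signalling the phosphatase genes HAI1 and ABI2 and the receptor gene PYL9 rose by 1.13, 0.53 and 0.53 with all libraries and by 1.35, 0.68 and 0.39 without wild-type replicate 1. These were 3 of 29 tested, against 10 called higher and 1 lower without that replicate. Among 19 brassinosteroid genes BRL1, a receptor, rose by 0.98 ± 0.21 and 1.12 ± 0.23, and 8 were called higher and 0 lower without wild-type replicate 1. None of 32 auxin genes was called in both fits (edgeR). With all libraries 2 were higher and 14 lower at an unadjusted p under 0.05, and 3 were called higher and 5 lower without wild-type replicate 1. The calls of HAI1, ABI2, PYL9 and BRL1 with all libraries were lost without tfl1 replicates 2 and 3 and other libraries (adjusted p up to 0.0261), and those of HAI1, PYL9 and BRL1 in the smaller fit without wild-type replicate 2 or 3, for PYL9 also tfl1 replicate 3 and for BRL1 tfl1 replicate 2 (adjusted p up to 0.0249).

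SAG12 and PR1 were among the 12 genes named for the largest increase. Of 3 tested senescing leaf genes 2 rose in both fits, and of 10 tested genes of salicylic acid and defence 2 rose and 4 were called higher without wild-type replicate 1. SAG12, a cysteine protease gene of senescing leaves, had 302, 197 and 233 counts in tfl1, against 1, 0 and 1 counts in the wild type, a ratio of 261 at equal depth (95% counting interval 72 to 2160). SAG13, another senescence marker, had 2.48, 2.22 and 1.87 CPM in tfl1 and 0.764, 0.465 and 0.143 CPM in the wild type and rose by 2.25 ± 0.35 and 2.77 ± 0.38. PR1, the usual marker of salicylic acid signalling, had 37.7, 35.6 and 38.8 CPM in tfl1, against 0.573, 0.697 and 0.477 CPM in the wild type and 1.3 to 1.95 CPM in untreated ft, and rose by 5.98 ± 0.82 and 5.96 ± 0.91 (adjusted p = 0.000182 and 0.000165). PR5, also induced by salicylic acid, had 75.4, 66 and 76.9 CPM in tfl1, against 27.6, 24.7 and 25.5 CPM in the wild type, and rose by 1.49 ± 0.11 and 1.54 ± 0.12. The call of PR1 without wild-type replicate 1 was lost without wild-type replicate 3 (adjusted p = 0.00546). Senescing leaf markers (4 genes, all detected) summed to 206 to 239 CPM in tfl1 and 107 to 180 CPM in the wild type. Among them a gene not called in either fit reached 204 CPM. Defence markers (3 of 3 detected, 2 called higher in both fits) summed to 123 to 135 CPM in tfl1 and 28.1 to 47.1 CPM in the wild type. Phloem markers (3 of 3, 0 called in both fits) summed to 83.9 to 87.1 CPM in tfl1 and 46.2 to 67 CPM in the wild type. Xylem markers had 27.3 to 33.3 CPM in tfl1 and 28.4 to 31.6 CPM in the wild type. Floral organ markers had 3.68 to 3.88 CPM in tfl1 and 3.96 to 5.58 CPM in the wild type, with 0 called in both fits. Leaf photosynthesis markers overlapped, with 4880 to 5320 CPM in tfl1 and 4110 to 5800 CPM in the wild type. The part of leaf tissue left on the shoots in these results was not tested.

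Others of the 12 genes of largest increase varied among the tfl1 replicates. RAP2.6, an ERF gene, had 22.7, 64.1 and 43.1 CPM in tfl1, against 0.0477, 1.9 and 0.572 CPM in the wild type and 17.8 to 35.2 CPM in untreated ft, and rose by 5.60 ± 0.64 and 5.06 ± 0.60 (adjusted p = 3.44e-05 and 2.2e-05). TAT3, a tyrosine aminotransferase gene, had 54, 194 and 126 CPM in tfl1, against 3.44, 6.5 and 9.2 CPM in the wild type and 92.1 to 95.2 CPM in untreated ft, and rose by 4.286 ± 0.44 and 3.996 ± 0.47. In both genes tfl1 replicate 1 was the lowest and replicate 2 the highest, and the ft libraries lay within the range of tfl1 or just below it. AT2G38240, a 2-oxoglutarate-dependent oxygenase, TPS04, a terpene synthase gene, and ABR1 and MDHAR, an ERF and a monodehydroascorbate reductase gene, had the same order of tfl1 replicates. AT2G38240 had 110, 666 and 418 counts in tfl1 and 0, 3 and 1 counts in the wild type. CYP94B1, which inactivates jasmonoyl-isoleucine, had 6.95, 14.8 and 12.9 CPM in tfl1, against 0.525, 0.465 and 0.62 CPM in the wild type and 12.8 to 14.9 CPM in untreated ft, and rose by 4.43 and 4.42.

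Of 14 tested jasmonate and wounding genes 1 rose and 2 fell, against 7 called higher and 2 lower without wild-type replicate 1. Their median log2 fold change was -0.017 with all libraries and 0.913 without that replicate. JAZ10, a repressor induced by jasmonate, had 65.2, 122 and 94.6 CPM in tfl1 and 14.4, 29.7 and 27.8 CPM in the wild type and rose by 1.97 ± 0.30 and 1.71 ± 0.29. The vegetative storage protein genes VSP1 and VSP2, also induced by jasmonate, fell. VSP1 had 77.9, 91.8 and 84.1 CPM in tfl1, against 108, 454 and 766 CPM in the wild type, and VSP2 had 128, 136 and 135 CPM in tfl1, against 194, 655 and 987 CPM in the wild type, so that wild-type replicate 1 lay nearer to tfl1 in both. These falls were of 2.39 and 2.20 with all libraries and of 2.85 and 2.62 without wild-type replicate 1, and with all libraries they lost their calls without wild-type replicate 3 or any tfl1 replicate (adjusted p up to 0.0133). When wild-type replicate 1 was left out, JAZ10 was lost without wild-type replicate 3, and AT2G38240 and TPS04 without wild-type replicate 2 or 3 (adjusted p up to 0.00868). TPS04 was also lost from the full fit without wild-type replicate 3 (adjusted p = 0.00551).

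Of 6 tested heat genes 2 rose and 4 were called higher without wild-type replicate 1. Of 10 tested cold genes 2 rose and 8 were called higher without it. HSFA2, the heat shock factor that sustains the heat response, had 12, 16.1 and 12.9 CPM in tfl1, against 0.716, 1.24 and 1 CPM in the wild type and 6.68 to 7.83 CPM in untreated ft, and rose by 3.77 ± 0.26 and 3.59 ± 0.29 (adjusted p = 4.84e-07 and 7.92e-07). The chaperone gene HSP70 (AT3G12580) had 23, 37.4 and 26.9 CPM in tfl1, against 3.25, 2.21 and 2.1 CPM in the wild type and 11 to 25.1 CPM in untreated ft, and rose by 3.53 ± 0.33 and 3.75 ± 0.41. COR15A, a chloroplast protein gene that protects membranes in the cold, had 278, 256 and 267 CPM in tfl1, against 118, 94.6 and 125 CPM in the wild type, and rose by 1.25 ± 0.10 and 1.28 ± 0.11 (adjusted p = 1.26e-06 and 8.73e-07). COR15B beside it rose by 1.02 ± 0.20 and 1.12 ± 0.19, and lost its call with all libraries without any library but wild-type replicate 1 and in the smaller fit without wild-type replicate 2 (adjusted p up to 0.0107). The other 3 held throughout.

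Windows before HSFA2 and COR15A are shown with the motifs known to carry heat and cold induction. For HSFA2 the window is chr2:11135374-11135623 on the plus strand and capitals mark 2 heat shock elements (GAANNTTC, its own reverse complement). For COR15A it is chr2:17712331-17712580 on the minus strand and capitals mark 2 C-repeats (CCGAC or, on the other strand, GTCGG), both from RefSeq TAIR10.1.
HSFA2: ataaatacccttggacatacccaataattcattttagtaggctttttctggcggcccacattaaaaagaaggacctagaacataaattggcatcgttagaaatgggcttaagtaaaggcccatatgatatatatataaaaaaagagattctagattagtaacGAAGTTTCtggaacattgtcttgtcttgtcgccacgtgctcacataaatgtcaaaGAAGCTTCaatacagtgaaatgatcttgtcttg
COR15A: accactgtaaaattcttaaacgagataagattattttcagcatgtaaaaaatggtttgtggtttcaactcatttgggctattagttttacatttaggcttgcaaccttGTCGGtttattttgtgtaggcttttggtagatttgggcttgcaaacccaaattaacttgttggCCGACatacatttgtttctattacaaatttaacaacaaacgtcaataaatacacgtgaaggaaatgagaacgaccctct
Across all risers these motifs were about as frequent as in other genes. A heat shock element lay in the 250-base window of 8.45% of the genes that rose, 9.12% of those that fell and 9.29% of all tested genes, and a C-repeat in 13.5% of the genes that rose, 9.48% of those that fell and 12.8% of all. A G-box lay in 9.15% of the genes that rose, 6.44% of those that fell and 7.25% of all, and a C-box in 2.82%, 2.86% and 2.39% of the same sets. The W-box (TTGAC, either strand) of WRKY factors lay in 45.9%, 44.4% and 44.5%, and the evening element of clock genes (AAAATATCT, either strand) in 4.93%, 2.86% and 2.47%. These shares are descriptions without a test.

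The cold regulators above COR15A show how far wild-type replicate 1 set the result. CBF1 had 40.5, 37.5 and 38.5 CPM in tfl1, against 114, 4.8 and 4.48 CPM in the wild type. CBF2 had 38.5, 37.1 and 37.6 CPM in tfl1 and 106, 2.79 and 4.01 CPM in the wild type, and CBF3 had 26.3, 26.4 and 26 CPM in tfl1 and 25.8, 6.7 and 6.82 CPM in the wild type. These 3 genes, chosen after their values were seen, were not called with all libraries (adjusted p of 0.963, 0.997 and 0.102) and were higher in tfl1 by 3.06, 3.49 and 1.96 without that replicate (adjusted p of 0.000754, 0.000286 and 7.49e-05). PRR5 and TOC1, clock genes also chosen after their values were seen, were likewise called only without that replicate, higher by 1.104 and 0.79. With all libraries they had log2 fold changes of 0.42 and 0.41 (adjusted p of 0.342 and 0.121). PRR5 had 40.8, 40.5 and 38.5 CPM in tfl1, against 52.3, 20.2 and 16.8 CPM in the wild type, and TOC1 had 195 to 208 CPM in tfl1, against 223, 129 and 106 CPM in the wild type.

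Of 8 evening clock genes ELF4, of the evening complex, and ZTL, a blue-light receptor, rose in both fits. ELF4 had 73.7, 64 and 70.9 CPM in tfl1, against 53.1, 44.8 and 47.3 CPM in the wild type (log2 fold changes 0.52 ± 0.09 and 0.59 ± 0.08). ZTL had 37.3 to 39 CPM in tfl1 and 28.2 to 31.4 CPM in the wild type (0.38 ± 0.07 and 0.43 ± 0.07). Without wild-type replicate 1, 6 of these 8 were higher. Morning genes were low in both groups, with 0.591 to 0.847 CPM of LHY in tfl1 and 0.658 to 1.38 CPM in the wild type, and none of 12 was called in both fits (edgeR), with 1 higher at an unadjusted p under 0.05 with all libraries and 2 called higher without wild-type replicate 1. The call of ELF4 with all libraries was lost without tfl1 replicate 1 and that of ZTL without any library but wild-type replicate 1 (adjusted p up to 0.00827). How far a difference in the hour of collection enters these values was not tested. PIF4, a bHLH growth factor that works in shade and warmth, had 147, 140 and 144 CPM in tfl1, against 112, 92.9 and 71.4 CPM in the wild type, and rose by 0.64 ± 0.12 and 0.81 ± 0.10, the only call in both fits among 17 shade and light genes, of which 3 were called higher and 2 lower without wild-type replicate 1. Its call was lost from the full fit without wild-type replicate 2 or any tfl1 replicate (adjusted p up to 0.00904).

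In carbon metabolism GBSS1, a starch synthase gene, had 45.8, 71 and 61 CPM in tfl1, against 25.4, 15.8 and 13.4 CPM in the wild type, and rose by 1.70 ± 0.20 and 2.02 ± 0.17 (adjusted p = 4.4e-05 and 8.67e-07). APL3, a subunit of the enzyme that makes ADP-glucose for starch, had 85.6, 83.3 and 83.7 CPM in tfl1 and 50.1, 44.5 and 49.4 CPM in the wild type and rose by 0.81 ± 0.08 and 0.84 ± 0.08, which makes 2 of 12 starch genes, against 4 called higher and 1 lower without wild-type replicate 1. DRM1, a marker of dormant buds and sugar starvation, had 848 to 952 CPM in tfl1 and 519 to 709 CPM in the wild type and rose by 0.57 ± 0.11 and 0.48 ± 0.11. TPPF, a trehalose 6-phosphate phosphatase gene, had 10.8 to 11.4 CPM in tfl1 and 6.31 to 7.34 CPM in the wild type and rose by 0.68 ± 0.11 and 0.72 ± 0.13, the one call in both fits among 17 tested genes of that pathway. Of these, 5 were called higher without wild-type replicate 1. Among 10 flavonoid genes FLS1 rose by 0.92 ± 0.13 and 0.98 ± 0.15 and PAP2, a MYB activator of anthocyanin, by 1.82 ± 0.26 and 1.74 ± 0.30. Of these genes, 3 were called higher without wild-type replicate 1. The call of DRM1 was lost in either fit without wild-type replicate 3 or tfl1 replicate 1 or 3, and from the full fit also without tfl1 replicate 2 (adjusted p up to 0.0602). The calls without wild-type replicate 1 were lost for TPPF without wild-type replicate 2 and for PAP2 without wild-type replicate 3 (adjusted p up to 0.0109). None of the 17 nuclear photosynthesis genes, 14 cell division genes and 14 chromatin genes tested was called in both fits (edgeR). At an unadjusted p under 0.05 with all libraries 2 photosynthesis genes were higher, 4 cell division genes were lower and 0 chromatin genes passed. Without wild-type replicate 1 each list had 1 gene called higher and the chromatin list also 1 called lower.

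Transcripts encoded in the chloroplast genome were lower in tfl1. Of 66 tested, 15 fell and none rose (59 were lower and 0 higher at an unadjusted p under 0.05), with a median log2 fold change of -1.35 with all libraries and -1.48 without wild-type replicate 1, and with all libraries the same 15 were called lower and 0 higher, against 31 lower and 0 higher without wild-type replicate 1. They made up 0.00882%, 0.00684% and 0.00965% of the gene counts in tfl1, against 0.0172%, 0.0198% and 0.0244% in the wild type. Transcripts of the mitochondrial genome made up 0.0111% to 0.0144% in tfl1 and 0.0113% to 0.0128% in the wild type, and none of 22 was called in both fits (edgeR), with 7 lower at an unadjusted p under 0.05 with all libraries and 5 called lower without wild-type replicate 1. Such transcripts carry few poly(A) tails, and the part of library preparation in this difference was not tested.

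Some genes were on in one genotype and at or near 0 in the other. AT2G06550, annotated as a pseudogene on chromosome 2, had 57, 65 and 55 counts in tfl1 and 0 in all 3 wild-type libraries, at least 13.9-fold higher against 3 counts in each wild-type library. AT3G42927, a pseudogene on chromosome 3, had 282, 240 and 243 counts in tfl1 and 0, 1 and 1 counts in the wild type, a ratio of 273 (95% counting interval 75.3 to 2260). AT5G45180, a flavin-binding monooxygenase gene, had 93, 79 and 85 counts in tfl1 and 0, 1 and 1 counts in the wild type, a ratio of 91.6 (25.1 to 761). All 3 had at most 2 counts in every untreated ft library as well and separated tfl1 from both other genotypes. AGP3, an arabinogalactan protein gene, had 41, 44 and 37 counts in tfl1 and 1, 1 and 0 counts in the wild type, and PXMT1, a methyltransferase gene, had 49, 90 and 52 counts in tfl1 and 3, 1 and 2 counts in the wild type. In the other direction AT5G51950, a glucose-methanol-choline oxidoreductase gene, had 2, 3 and 2 counts in tfl1 and 41, 31 and 37 counts in the wild type, 21.8-fold fewer at equal depth (10.2 to 55.6). Of these 6, PXMT1 lost its call without wild-type replicate 1 when wild-type replicate 2 or 3 was also left out (adjusted p up to 0.0178).

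The remaining genes of largest change include AT4G08093, a transcribed pseudogene, with 34.1, 30.5 and 31.8 CPM in tfl1 and 0.859, 2.4 and 0.858 CPM in the wild type, and AT1G12540, a bHLH gene, with 13.5, 23.5 and 16.8 CPM in tfl1 and 0.0477, 0.465 and 0.191 CPM in the wild type. Among the largest decreases AT1G75945, an uncharacterized protein, had 0.473, 0.619 and 0.295 CPM in tfl1, against 14.5, 35 and 37.3 CPM in the wild type, and fell by 5.96 (SE 0.36, adjusted p = 2.25e-07) and by 6.28 (SE 0.19, adjusted p = 3.62e-11). AT1G06100, of the fatty acid desaturase family, had 0.177, 0.456 and 0.295 CPM in tfl1 and 15.8, 19 and 22.4 CPM in the wild type. AT2G33850, an E6-like protein gene, had 6.36, 6.81 and 7.55 CPM in tfl1 and 68, 53.8 and 85.7 CPM in the wild type. AT3G16670, an allergen and extensin family gene, AT5G55720, a pectin lyase-like gene, AT3G61840, a DUF688 gene, GLC, an acyltransferase gene, NSP4, a nitrile specifier protein gene, and ACA2 (AT2G28210), an alpha carbonic anhydrase gene, fell by 3.46 to 4.82 with all libraries and by 3.56 to 5.20 without wild-type replicate 1. In untreated ft, AT1G06100, AT5G55720, GLC, NSP4 and AT2G33850 lay within or next to the wild-type range.

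After 24 h of FRP most of these differences between tfl1 and the wild type were not seen. In the treated plants 378 genes (1.76% of 21442) were higher and 195 (0.909%) lower in tfl1. Of the 852 genes that rose before treatment, 37 (4.34%) were also higher and 71 (8.33%) were lower after FRP, and their median log2 fold change was 0.833 before and -0.0497 after. Of the 574 that fell, 30 (5.23%) were also lower and 20 (3.48%) were higher after FRP, with medians of -0.802 before and 0.00577 after. The test of the difference between the effects before and after FRP passed the threshold in 395 of the 852 and 206 of the 574 with all libraries, and in 1019 genes over the whole table, against 5345 over the whole table without wild-type replicate 1. The 2 comparisons use separate libraries in one fit, and the members were chosen on the first, so a smaller second value is partly given by that choice.

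TSF turned round, and the difference between its effects before and after FRP was 7.785 with all libraries (adjusted p = 2.03e-08). Its levels after FRP were 0.117, 0.055 and 0.122 CPM in tfl1, against 1.36, 1.58 and 1.39 CPM in the wild type (log2 fold change -3.84, adjusted p = 5.06e-07). In the treated tfl1 libraries 3 counts equal 0.0825 to 0.0912 CPM, so TSF was near the limit of detection there. MAF5 stayed higher, with 15.9, 16.1 and 15.3 CPM in tfl1 and 1.52, 1.05 and 1.19 CPM in the wild type, and so did LFY, with 4.56, 3.33 and 3.44 CPM in tfl1 and 1.73, 1.19 and 1.69 CPM in the wild type (log2 fold change 1.28, adjusted p = 0.00088). TFL1 itself, not called before treatment, had 44.4 to 45.3 CPM in tfl1 after FRP, against 14.1 to 18.6 CPM in the wild type. AT3G42927, AT4G08093 and AT5G45180 stayed higher and AT1G75945 and MYB23 stayed lower in tfl1 after FRP. AT5G33370 stayed lower by a smaller margin, with 2.25 to 2.89 CPM in tfl1 and 5.63 to 15.1 CPM in the wild type. SAG12, by contrast, had 2.6 to 5.72 CPM in tfl1 and 2.24 to 2.84 CPM in the wild type after FRP, and PR1 overlapped at 5.58 to 10.7 CPM in tfl1 and 0.239 to 15.7 CPM in the wild type. COR15A and APL3, higher before treatment, were lower in tfl1 after it, by 0.72 and 0.92.

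**Figure D5:**
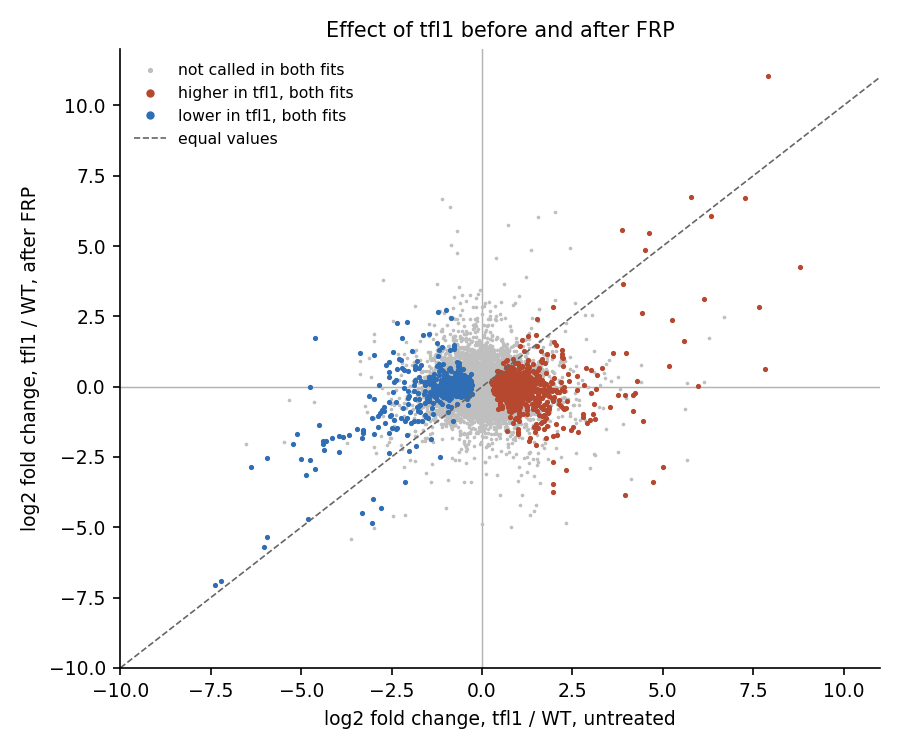
Log2 fold changes of tfl1 over wild type in untreated apices with all libraries (x axis) and after FRP (y axis), one point per tested gene. Red and blue points are the genes called higher or lower in tfl1 before treatment in both fits; their medians after FRP are -0.0497 and 0.00577, and a few points near the dashed line of equal values, among them AT3G42927 and AT1G75945, keep their difference.

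The called genes were spread over the genome. Between 6.2% and 7.14% of the tested genes on each chromosome were called in both fits, against 6.61% over the 5 chromosomes together. In 108 bins of 1 Mb with at least 50 tested genes the share ran from 1.82% to 13.3%, the highest between 8 and 9 Mb of chromosome 5. Within 500 kb of TFL1, which lies on chromosome 5, 15 of 241 tested genes (6.22%) were called.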

How the data were processed

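The values are raw read counts per gene, whole numbers that the authors deposited in 1 file per library. Single-end reads had been trimmed (Trimmomatic), mapped to TAIR10 (STAR 2.5.3a) and assigned to Araport11 genes (HTSeq 0.7.2), without regard to strand and with a minimum mapping quality, so reads of a gene and its antisense partner cannot be told apart and near-identical copies such as the MAF genes, VSP1 and VSP2 or the CBF genes lose reads that fit several places. Lines that name no gene took 8.73% to 9.53% of counted reads in tfl1 and 8.45% to 9.82% in the wild type and were dropped. Of 37336 genes 37051 were matched to RefSeq TAIR10.1, whose nuclear chromosomes have the sequence of TAIR10 and which gave names, positions and sequences.

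A gene needed 10 counts or more in 2 or more libraries and was tested with edgeR 4.0.16 (quasi-likelihood test, TMM, limma 3.58.1, R 4.3.3) in a single fit of 6 conditions with 3 replicates each, tfl1 minus wild type, with Benjamini-Hochberg adjustment over all tested genes, once with 18 libraries and once with 17. The study's methods call the replicates biological. The p-values set each difference against a spread estimated from the replicates of all 6 conditions, not of the compared groups alone. With only the compared groups in the fit 29 genes were called, against 1461 with all libraries. The test was tested on simulated data with the same spread in every gene and library and, unlike these data, no outlying library. Those data were an easier case than these. The authors used 2 libraries per condition and DESeq2 with the same threshold. Of the untreated libraries compared here, wild-type replicate 1 and tfl1 replicate 2 were not among those they used.

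Named genes are the study's floral and onset genes, per direction the 12 called genes of largest change among those without overlap and averaging 50 counts or more, genes with at most 3 counts in every library of one group and at least 30 in every library of the other, and members of lists called in both fits. In a list without such a member, up to 3 members of largest mean CPM were named instead. Members and lists were chosen with earlier results of these data known, and the trichome and cuticle lists after the values had been seen. Alternatives were single libraries left out, the authors' 12 libraries, fewer groups in the fit, the replicate number as a block, DESeq2 1.42.0 or its size factors, library totals, other count minimums, other thresholds, removal of smooth trends (5 degrees of freedom each) and thinned counts.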

Additional observations from a re-analysis of the deposited data

Results flagged for a closer look

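In 40 genes the effect of tfl1 differed between untreated plants and plants after FRP by edgeR's test of that difference, past the threshold both with all libraries and without wild-type replicate 1. Of these, 30 are among the genes named by rule and 10 are members of the trichome and cuticle lists, which were drawn up after values had been seen. Most of the 40 were chosen on untreated values that this test uses again, so a smaller effect after FRP is partly given by that choice. Over the whole table the difference passed the threshold in 1019 of 21442 genes with all libraries and in 5345 of 21429 without wild-type replicate 1. The values are the log2 effect in untreated plants minus that after FRP with all libraries. In 6 genes tfl1 was called higher before FRP and lower after it, with 7.785 for TSF, 2.253 for TPPF, 2.161 for PR5, 2.094 for IPT5, 1.967 for COR15A and 1.729 for APL3. In 15 genes tfl1 was called higher before FRP and not called after it. Of these SAG12 gave 7.197, PR1 5.94, PXMT1 5.683, MDHAR 5.036, ABR1 4.45, HSP70 4.26, TAT3 4.082, HSFA2 4.07 and SAG13 3.02, while PAP2 gave 2.749, GBSS1 2.004, COR15B 1.748, SHN3 1.71, FLS1 1.338 and ZFP5 1.334. In 3 genes tfl1 was lower both before and after FRP, by less after it, with -2.388 for the lipase gene AT5G33370, -2.046 for NSP4 and -1.85 for CYP86A4. In 11 genes tfl1 was called lower before FRP and not called after it. These gave -2.848 for VSP2, -2.514 for ARR9, -1.986 for GL1, -1.94 for CYP86A7, -1.64 for CPC, -1.422 for ARR8, -1.318 for CYP77A6, -1.152 for FLC, -1.066 for HDG11, -0.7784 for ABCG13 and -0.7149 for LTPG1. In 4 genes there was no call in both fits before FRP and a higher level in tfl1 after it, with -1.567 for TFL1 and -3.29, -2.23 and -1.923 for CYP79F1, BCAT4 and MAM1, genes of aliphatic glucosinolate synthesis. SUC2, a phloem sucrose transporter gene, gave 1.444 and was called neither before FRP in both fits nor after it.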

How the results depend on the processing

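The count of called genes depended on the libraries in the fit more than on the tool. With all libraries it was 1461, and 741 to 5208 when one library was left out, the highest without wild-type replicate 1. It was 5206 in the authors' 12 libraries, 29 with only the compared groups in the fit, 357 with only untreated libraries, 2651 with DESeq2, 4322 at an adjusted p of at most 0.05, 561 with at least a 2-fold change and 2760 with length and GC trends removed. Without wild-type replicate 1 it was 5208, and 1655 to 4261 when a further library was left out, 9774 at an adjusted p of at most 0.05 and 1365 with at least a 2-fold change. Of the 1426 genes called in both fits, 1327 were called in the same direction in the authors' 12 libraries and 28 with only the compared groups in the fit. Of 96 named genes called in both fits, 55 kept their calls when any single library was left out of either fit, and no called direction turned under any alternative. Directions turned in 3 genes that were not called. With all libraries the log2 fold change of TFL1 ran from -0.36 to 0.209 when one library was left out (0.209 and 0.067 without wild-type replicate 2 and 3) and was 0.0103 with library totals, 0.00943 with a minimum of 1 count and 0.0184 with thinned counts, and that of GI ran from -0.161 to 0.58 (-0.151 and -0.161 without wild-type replicate 2 and 3 and -0.0326 without tfl1 replicate 2). In the fit without wild-type replicate 1 that of LMI2 ran from -0.088 to 0.0952 when a further library was left out (-0.088 without wild-type replicate 2, -0.0262 and -0.024 without tfl1 replicate 1 and 3) and was -0.0302 with the replicate block, -0.0239 with trends removed and -0.0331 with thinned counts. The causes were not tested. Same-numbered tfl1 and wild-type libraries did not deviate together (r of -0.293, -0.257 and -0.0366 across genes). These deviations are from group means that include wild-type replicate 1, so they cannot decide whether the numbers pair the samples. The replicate block gave 1270 calls with all libraries and 7334 without wild-type replicate 1.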
